A study of Mus musculus with 8 samples.

Results

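Transcripts that mark the branches of the dendritic cell lineage were read in cells sorted from mouse tail tumors. The genes are Xcr1, Clec9a, Batf3 and Irf8 for type 1 conventional dendritic cells (cDC1), Cd209a and Irf4 for type 2 conventional dendritic cells (cDC2), Siglech for plasmacytoid dendritic cells (pDC), Ccr7 and Fscn1 for migratory dendritic cells, and Zbtb46 for conventional dendritic cells as a whole. They are 10 of the 19938 genes with a probe set of their own on the array, and each has 1 probe set, so that no choice among probe sets was needed. Dendritic cells capture antigen in tissues and present it to T cells. The cDC1 take up dead cells and prime CD8 T cells, the cDC2 mainly prime CD4 T cells, the pDC are specialised for type I interferon, and migratory dendritic cells are conventional cells that have matured and are on their way to the draining lymph node. IL-15, which these cells can present to lymphocytes, sustains NK cells and memory CD8 T cells.

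The RNA came from 4 TAX-LUC mice, 2 of them IL-15-/- and 2 IL-15+/+. All carried the HTLV-1 oncogene Tax under the granzyme B promoter and a luciferase reporter driven by the viral promoter, on a mixed C57BL/6 and FVB background. Cells of each tail tumor were sorted by their staining for CD16/32, the low-affinity Fc gamma receptors. The labels call the CD16/32HI cells malignant and the CD16/32LO cells tumor infiltrating. The study describes the CD16/32HI population as highly enriched in malignant large granular lymphocytes. The suspensions were treated with Fc block before they were stained for CD16/32. Each of the 4 groups (CD16/32HI IL-15-/-, CD16/32HI IL-15+/+, CD16/32LO IL-15-/- and CD16/32LO IL-15+/+) had 2 arrays, from a 14-month-old mouse (replicate 1) and a 12-month-old mouse (replicate 2). All values are log2 signals from RMA, which corrects the background, scales the arrays and summarises the probes of a probe set, so that a difference of 1 is a factor of 2 in signal. Each array is another mouse within its group, and each mouse gave an array to both populations. The genotype p-values rest on 1 spread shared by the 4 groups, with no term for the mouse. Groups of 2 limit the precision, and levels of different genes were not set against each other because probe sets differ in affinity. In a sorted bulk sample, fewer cells of a type and less RNA per cell cannot be told apart.

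Several features of the series bear on these genes. Il15 was at 6.31 and 5.22 in CD16/32HI IL-15-/- arrays, against 5.40 and 5.18 in CD16/32HI IL-15+/+ arrays, and at 5.45 and 6.54 in CD16/32LO IL-15-/- arrays, against 6.42 and 6.88 in CD16/32LO IL-15+/+ arrays. Its probe set also reads exons that the knockout allele keeps, so it is no check of the genotype. Markers of the large granular lymphocyte were on average no higher in the CD16/32HI arrays than in the CD16/32LO arrays. The 11 NK cell genes averaged 4.69 and 4.68 (IL-15-/-) and 5.41 and 5.07 (IL-15+/+) in CD16/32HI arrays. Their means in CD16/32LO arrays were 4.74 and 4.93 (IL-15-/-) and 6.59 and 6.28 (IL-15+/+). Single genes differed in level, with Klrd1 at 6.26 to 7.87 in CD16/32HI arrays. The macrophage gene C1qa lay between 10.10 and 11.43 in 3 of the 4 CD16/32HI arrays and between 7.94 and 8.16 in 3 of the 4 CD16/32LO arrays. In the IL-15-/- mouse of replicate 1 this was turned round, with C1qa at 7.68 and the neutrophil receptor Cxcr2 at 12.62 in the array labelled CD16/32HI, against 10.73 and 9.93 in the array labelled CD16/32LO. Labels were kept, and comparisons of the populations are given with and without this mouse, the turned mouse. Arrays that share exactly equal values, as arrays scaled together do, fall into 3 sets (all of replicate 1, IL-15-/- of replicate 2, IL-15+/+ of replicate 2), so that genotype and set cannot be told apart in replicate 2. Sex and genotype cannot be told apart either, since the female transcript Xist was at 10.08 to 10.75 in the IL-15-/- arrays and at 3.92 to 4.64 in the IL-15+/+ arrays.

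As a rough guide to signal without transcript, the 1035 probe sets of olfactory receptor genes had a 95th percentile of 5.28 to 5.80 in the 8 arrays. Batf3, Irf8, Ccr7 and Fscn1 were above it in all 8 arrays and Irf4 in 7. Siglech was above it in 4 arrays and Cd209a in 2. Xcr1, Clec9a and Zbtb46 were above it in 1 array each, and that array was the same for all 3, CD16/32LO IL-15+/+ replicate 2. The percentile of that array was the lowest of the 8, at 5.28. Zbtb46 was no higher there (5.59) than in CD16/32LO IL-15-/- replicate 1 (5.68). Xcr1, Clec9a and Zbtb46 were thus near background in 7 of the 8 arrays, and their differences between those arrays lie within that range of signal.

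**Figure D1:**
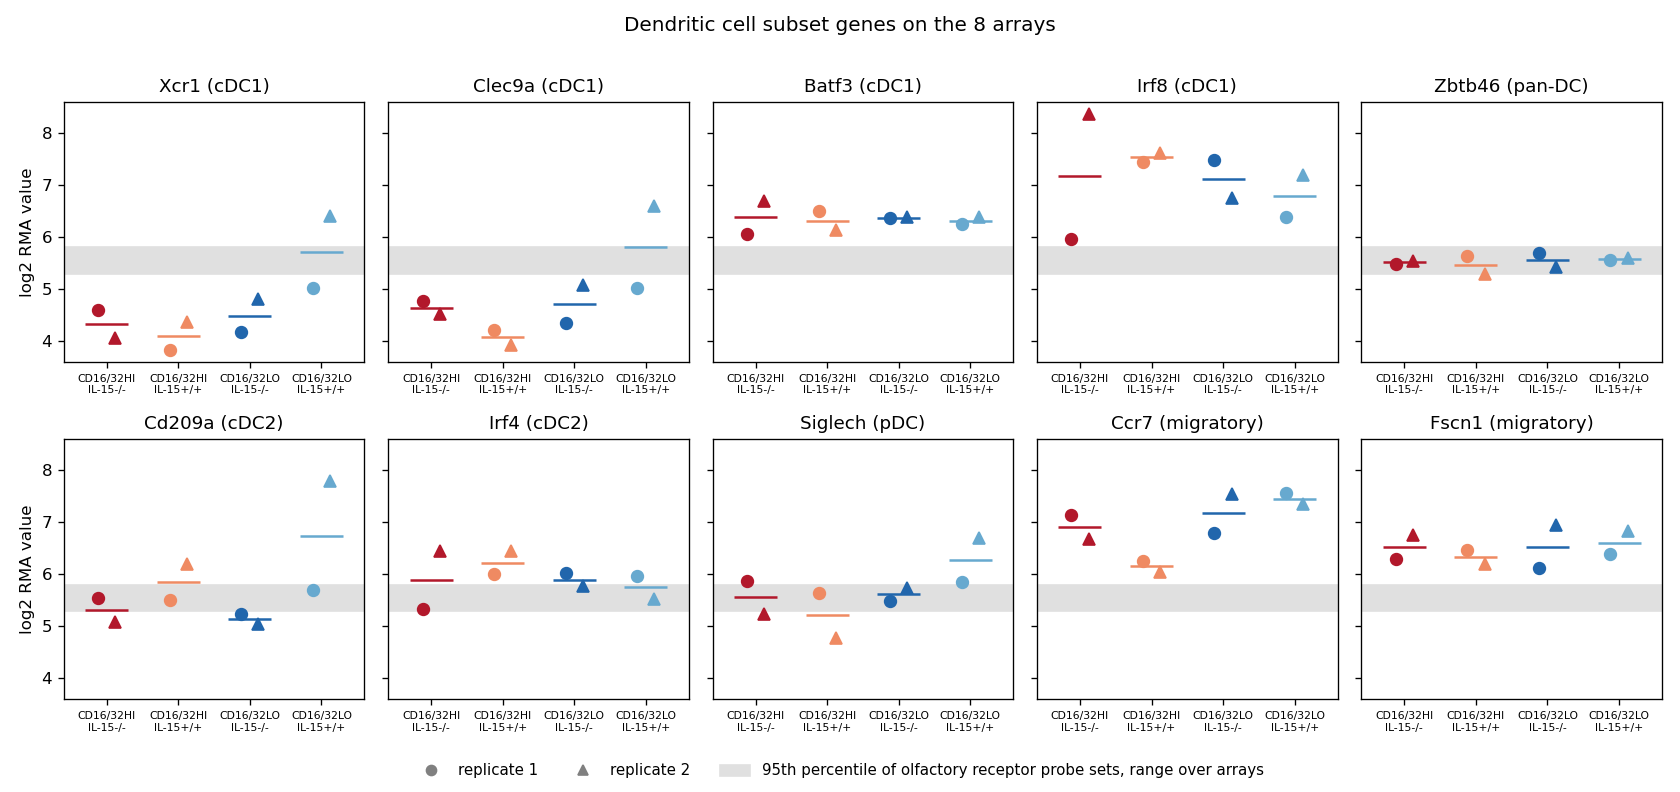
Log2 RMA values of the 10 dendritic cell genes (vertical axis) in the 4 groups (horizontal axis), with circles for replicate 1, triangles for replicate 2, bars for the mean of 2 arrays, and a grey band for the range of the olfactory receptor 95th percentile, 5.28 to 5.80. Xcr1, Clec9a, Cd209a and Siglech lie above the band in CD16/32LO IL-15+/+ replicate 2 (6.41, 6.59, 7.79 and 6.70). Xcr1 and Clec9a lie below it in every other array. Cd209a is also above it in CD16/32HI IL-15+/+ replicate 2 (6.20), and Siglech just above it in CD16/32HI IL-15-/- replicate 1 (5.87) and CD16/32LO IL-15+/+ replicate 1 (5.84). Zbtb46 and Batf3 stay level across the groups.

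The cDC1 receptors were the first of these genes to stand apart. Xcr1 (probe set 10597996), the receptor by which cDC1 sense the chemokine XCL1, was at 4.60 and 4.05 in CD16/32HI IL-15-/- arrays and at 3.81 and 4.36 in CD16/32HI IL-15+/+ arrays. In CD16/32LO cells it was at 4.16 and 4.80 in IL-15-/- arrays, against 5.01 and 6.41 in IL-15+/+ arrays. The genotypes overlapped in CD16/32HI cells and did not overlap in CD16/32LO cells, where 1 IL-15+/+ array lay close to the IL-15-/- arrays and the other stood 1.40 above every other array of the series. Clec9a (probe set 10542181), the lectin that recognises actin exposed by dead cells, was at 4.75 and 4.51 in CD16/32HI IL-15-/- arrays and at 4.21 and 3.92 in CD16/32HI IL-15+/+ arrays. Its values in CD16/32LO cells were 4.35 and 5.07 in IL-15-/- arrays, against 5.01 and 6.59 in IL-15+/+ arrays. Here the groups of CD16/32HI cells did not overlap and those of CD16/32LO cells did, and the same array, CD16/32LO IL-15+/+ replicate 2, was above all others, by 1.52. Over the 8 arrays Xcr1 and Clec9a followed each other with a Pearson correlation of 0.94, and of 0.75 over the 7 arrays left without that one.

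The cDC2 lectin Cd209a and the pDC lectin Siglech had their highest value in that array as well. Cd209a (probe set 10576784), a mouse homolog of DC-SIGN found on cDC2 and on dendritic cells that arise from monocytes, was at 5.53 and 5.08 in CD16/32HI IL-15-/- arrays and at 5.51 and 6.20 in CD16/32HI IL-15+/+ arrays. In CD16/32LO cells it was at 5.23 and 5.05 in IL-15-/- arrays, against 5.69 and 7.79 in IL-15+/+ arrays, which is 1.59 above the next array. Of its neighbours in the CD209 family, Cd209d was at 7.05 in CD16/32LO IL-15+/+ replicate 2 and at 4.64 to 4.91 in the other 7 arrays, Cd209b (3.88 to 4.16) stayed level, and Cd209c reached 6.02 in CD16/32HI IL-15+/+ replicate 2 and 6.003 in CD16/32LO IL-15+/+ replicate 2. Whether the probe sets of this family read each other's transcripts was not tested. Siglech (probe set 10553559), a sialic acid-binding receptor that defines mouse pDC, was at 5.87 and 5.23 in CD16/32HI IL-15-/- arrays and at 5.64 and 4.77 in CD16/32HI IL-15+/+ arrays. It was at 5.49 and 5.73 in CD16/32LO IL-15-/- arrays, against 5.84 and 6.70 in CD16/32LO IL-15+/+ arrays, the second of which was 0.82 above the next array. The correlation with Clec9a was 0.91 for Siglech and 0.70 for Cd209a over 8 arrays, and 0.78 and -0.50 without CD16/32LO IL-15+/+ replicate 2, so that the likeness of Cd209a and Clec9a rested on that array.

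The upstream sequences of these 4 genes are shown because the genes shared their highest array. They are the 250 bases before the RefSeq start of each gene (GRCm38.p6, read 5′ to 3′ on the strand of the gene), with every GGAAGT, the core bound by PU.1 and other ETS factors of myeloid cells, or its reverse complement, in capitals.
Xcr1, chr9:123862030-123862279, minus strand: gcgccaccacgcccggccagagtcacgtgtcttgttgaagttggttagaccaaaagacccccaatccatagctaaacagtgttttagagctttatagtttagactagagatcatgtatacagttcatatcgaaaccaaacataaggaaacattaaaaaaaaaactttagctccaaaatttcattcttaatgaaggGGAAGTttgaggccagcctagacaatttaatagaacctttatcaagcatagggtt
Clec9a, chr6:129408612-129408861, plus strand: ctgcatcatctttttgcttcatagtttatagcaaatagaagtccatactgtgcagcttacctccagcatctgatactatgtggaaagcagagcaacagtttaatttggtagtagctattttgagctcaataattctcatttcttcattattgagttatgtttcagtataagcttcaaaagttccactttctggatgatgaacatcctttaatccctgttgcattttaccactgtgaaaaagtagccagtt
Cd209a, chr8:3748985-3749234, minus strand: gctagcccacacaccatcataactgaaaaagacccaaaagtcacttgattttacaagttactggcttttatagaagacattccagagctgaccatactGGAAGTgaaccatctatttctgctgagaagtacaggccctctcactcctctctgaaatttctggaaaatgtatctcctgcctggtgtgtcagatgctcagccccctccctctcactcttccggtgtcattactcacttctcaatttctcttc
Siglech, chr7:55767934-55768183, plus strand: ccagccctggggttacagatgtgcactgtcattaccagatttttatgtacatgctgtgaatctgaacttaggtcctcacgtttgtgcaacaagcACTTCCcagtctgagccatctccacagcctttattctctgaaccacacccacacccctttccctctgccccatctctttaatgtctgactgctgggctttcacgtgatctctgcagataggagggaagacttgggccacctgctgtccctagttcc
GGAAGT was found once before Xcr1, Cd209a and Siglech and not before Clec9a, and among the other members before Batf3. On both strands, 19.7% of the 32851 promoter entries of this length hold it. The AP-1 letters TGANTCA, of the kind that BATF3 binds with JUN, were before Zbtb46 alone (6.75% of all entries), GGAANNGAA, an ETS site joined to an IRF site, before Cd209a alone (6.99%), and the tandem IRF letters GAAANNGAA before none (7.13%). RefSeq promoters were matched for 9 of the 10 genes, Ccr7 being the exception, and Irf8 has 2 entries.

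The factors that specify cDC1 did not share the pattern of the receptors. Batf3 (probe set 10352717), which cDC1 need for their development, was at 6.06 and 6.68 in CD16/32HI IL-15-/- arrays, 6.49 and 6.12 in CD16/32HI IL-15+/+ arrays, 6.36 and 6.37 in CD16/32LO IL-15-/- arrays and 6.24 and 6.37 in CD16/32LO IL-15+/+ arrays. Its group means lay within 6.30 and 6.37, less than the SD of either CD16/32HI group (0.44 in IL-15-/- and 0.26 in IL-15+/+, n = 2 each). Irf8 (probe set 10576034), a factor that cDC1, pDC, monocytes and B cells all use, was at 5.96 and 8.36 in CD16/32HI IL-15-/- arrays, against 7.45 and 7.60 in CD16/32HI IL-15+/+ arrays, and at 7.48 and 6.74 in CD16/32LO IL-15-/- arrays, against 6.38 and 7.18 in CD16/32LO IL-15+/+ arrays. The lowest and the highest array of Irf8 were thus both in the CD16/32HI IL-15-/- group. Across the 8 arrays Irf8 went with C1qa (r = 0.87) and against Cxcr2 (r = -0.84), and its values did not peak in CD16/32LO IL-15+/+ replicate 2. These correlations describe 8 arrays of 4 mice, in which cell composition, scaling set and mouse are shared.

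Irf4, the cDC2 factor, and the migratory genes likewise had other leaders. Irf4 (probe set 10404389), also active in lymphocytes and in monocyte-derived cells, was at 5.33 and 6.45 in CD16/32HI IL-15-/- arrays, 5.999 and 6.44 in CD16/32HI IL-15+/+ arrays, 6.02 and 5.76 in CD16/32LO IL-15-/- arrays and 5.96 and 5.53 in CD16/32LO IL-15+/+ arrays. Like Irf8 it went with C1qa (r = 0.80). Ccr7 (probe set 10390763), the receptor that guides mature dendritic cells and naive T cells towards CCL19 and CCL21, was at 7.14 and 6.68 in CD16/32HI IL-15-/- arrays, against 6.25 and 6.05 in CD16/32HI IL-15+/+ arrays, with no overlap. In CD16/32LO cells Ccr7 was at 6.79 and 7.54 in IL-15-/- arrays and at 7.55 and 7.34 in IL-15+/+ arrays, and the lower IL-15-/- value came from the mouse whose populations were turned round. Over the 8 arrays the correlation of Ccr7 was 0.91 with the neutrophil receptor Cxcr2, 0.78 with the B cell gene Cd79b, 0.71 with Clec9a and 0.60 with the T cell gene Cd3g. Without CD16/32LO IL-15+/+ replicate 2 it was 0.98 with Clec9a, which was near background in the 7 arrays left, and 0.90 with Cxcr2. Fscn1 (probe set 10527158), the actin bundler of mature dendritic cells, was at 6.28 and 6.75 in CD16/32HI IL-15-/- arrays, 6.46 and 6.19 in CD16/32HI IL-15+/+ arrays, 6.11 and 6.93 in CD16/32LO IL-15-/- arrays and 6.38 and 6.83 in CD16/32LO IL-15+/+ arrays. The 2 migratory genes were only loosely tied to each other (r = 0.46).

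Zbtb46 (probe set 10490682), the factor that separates conventional dendritic cells from other myeloid cells, was at 5.47 and 5.54 in CD16/32HI IL-15-/- arrays, 5.62 and 5.29 in CD16/32HI IL-15+/+ arrays, 5.68 and 5.41 in CD16/32LO IL-15-/- arrays and 5.56 and 5.59 in CD16/32LO IL-15+/+ arrays. All 8 values spanned 0.39, and no group stood apart. Its partner in marking the lineage, the growth factor receptor Flt3, did: it was at 5.79 and 5.83 in CD16/32HI IL-15-/- arrays, 6.15 and 5.70 in CD16/32HI IL-15+/+ arrays, and 5.68 and 6.34 in CD16/32LO IL-15-/- arrays, against 6.52 and 8.21 in CD16/32LO IL-15+/+ arrays. Flt3 went with Clec9a (r = 0.94), Xcr1 (0.91) and Cd209a (0.83) over the 8 arrays, and with r = 0.68 for Clec9a, 0.55 for Xcr1 and -0.14 for Cd209a without CD16/32LO IL-15+/+ replicate 2.

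**Figure D2:**
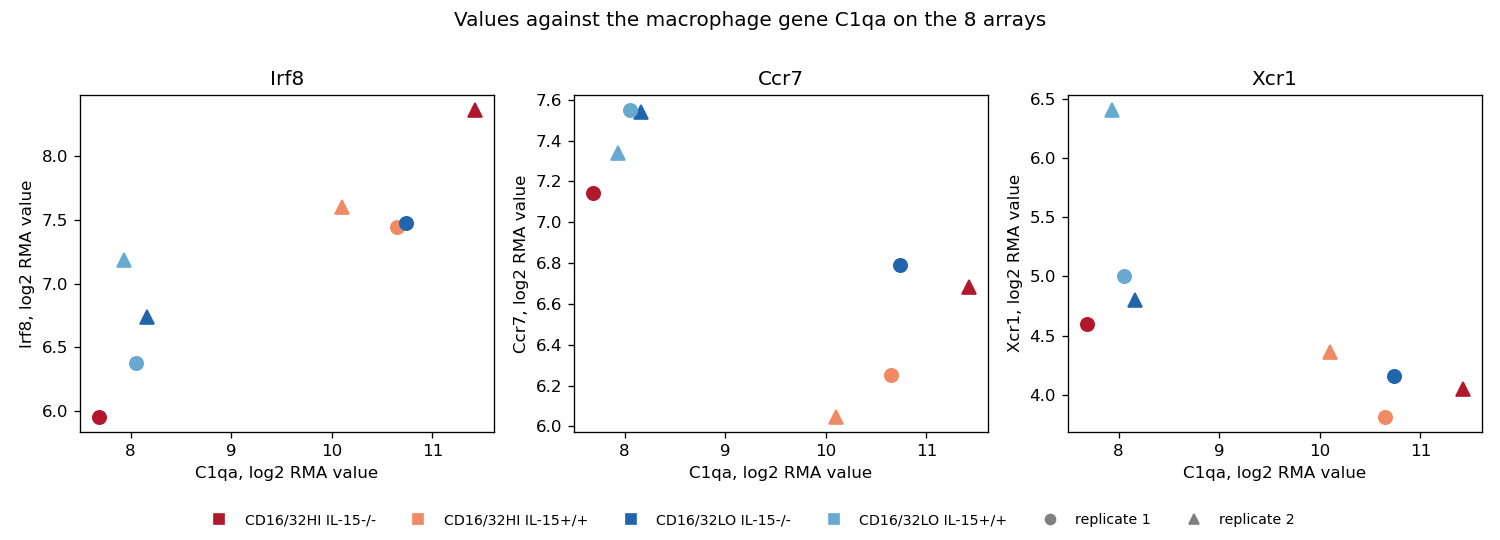
Log2 RMA values of Irf8, Ccr7 and Xcr1 (vertical axes) against the macrophage gene C1qa (horizontal axes) on the 8 arrays, coloured by group, with circles for replicate 1 and triangles for replicate 2. Irf8 is higher where C1qa is high (r = 0.87), Ccr7 is lower (r = -0.77), and Xcr1 has 1 array, CD16/32LO IL-15+/+ replicate 2, far above the rest at 6.41.

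IL-15-/- tumors were first compared with IL-15+/+ tumors within CD16/32LO cells, where limma called 0 of the 10 genes and 0.0367% of the 21789 probe sets tested. The log2 changes of the 4 receptors were negative, at -1.60 for Cd209a (SE 0.58), -1.23 for Xcr1 (SE 0.46), -1.09 for Clec9a (SE 0.47) and -0.66 for Siglech (SE 0.39), while the median over all probe sets was 0.13. Cd209a, Xcr1 and Clec9a had an unadjusted p under 0.05 from limma (0.0226, 0.0264 and 0.0461), as 417 probe sets did, and an adjusted p of 0.9999. In 3 of the 10 genes, Xcr1, Cd209a and Siglech, both IL-15-/- arrays were below both IL-15+/+ arrays, as in 4.7% of all probe sets. When CD16/32LO IL-15+/+ replicate 2 was left out, the 4 changes came to -0.55 for Cd209a, -0.53 for Xcr1, -0.31 for Clec9a and -0.23 for Siglech. The other 6 genes had changes between -0.28 (Ccr7) and 0.33 (Irf8), each within 1 SE of 0, and the signs of Batf3, Irf8, Irf4, Ccr7, Fscn1 and Zbtb46 turned under at least 1 other setting. These changes include the CD16/32LO array of the turned mouse, where C1qa was at 10.73. The other IL-15-/- array was at 5.05 for Cd209a, 4.80 for Xcr1, 5.07 for Clec9a and 5.73 for Siglech. The IL-15+/+ means of these 4 genes were 6.74, 5.71, 5.80 and 6.27.

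Within CD16/32HI cells limma called 0 of the 10 genes between IL-15-/- and IL-15+/+ tumors, against 0.0229% of all probe sets. The largest change was that of Ccr7, 0.76 (SE 0.30, unadjusted p = 0.0336, adjusted p = 0.854), and its 2 IL-15-/- values lay above those of IL-15+/+ tumors. Clec9a was the other gene without overlap, with a change of 0.57 (SE 0.47). That makes 2 of 10, where 24.1% of all probe sets have both IL-15-/- arrays on top. Cd209a had a change of -0.55 (SE 0.58), Irf8 of -0.37 (SE 0.67), Siglech of 0.35 (SE 0.39), Irf4 of -0.33 (SE 0.37) and Xcr1 of 0.23 (SE 0.46), and Fscn1, Batf3 and Zbtb46 were at 0.19, 0.06 and 0.05. The turned mouse set several of these values. Without its arrays Irf8 was 0.84 (SE 0.38, adjusted p = 0.887) and Irf4 0.23 with the sign reversed, and Ccr7 was 0.53 (SE 0.32, adjusted p = 0.904).

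The genotype change was next compared between the populations within mice, and limma called 0 of the 10 genes and 0% of all probe sets, 578 of which had an unadjusted p under 0.05. Xcr1 had the smallest p of the 10, with 1.46 for the CD16/32HI change minus the CD16/32LO change (SE 0.54, unadjusted p = 0.0474, adjusted p = 0.878). The same difference was 1.66 for Clec9a (SE 0.74), 1.06 for Cd209a (SE 0.53), 1.04 for Ccr7 (SE 0.46) and 1.004 for Siglech (SE 0.69). In the turned mouse CD16/32HI was above CD16/32LO for all 5 genes (by 0.31 to 0.44), so that these values include its turned populations.

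CD16/32HI and CD16/32LO cells of the same tumor were compared within each mouse. With all 4 mice limma called 0 of the 10 genes and 0% of the probe sets, with 257 at an unadjusted p under 0.05. In the 3 mice whose macrophage and neutrophil genes ran the same way, it called 4 of the 10, against 14.3% of all probe sets. Lower in CD16/32HI cells were Ccr7 (log2 difference -1.15, SE 0.15, adjusted p = 0.00121), Xcr1 (-1.33, SE 0.22, adjusted p = 0.00425) and Clec9a (-1.34, SE 0.34, adjusted p = 0.03), while Irf8 was higher (1.04, SE 0.21, adjusted p = 0.011). Each of the 3 mice showed these directions. The turned mouse was left out for its C1qa and Cxcr2 values on these same arrays, and the adjusted p-values do not account for that choice. Over the 8 arrays Irf8 went with C1qa (r = 0.87) and Ccr7 with Cxcr2 (r = 0.91). Of the 6 arrays compared, Xcr1 and Clec9a were above the olfactory receptor level in CD16/32LO IL-15+/+ replicate 2 alone, so that their differences set signals near background against each other in the other 2 mice, whereas Ccr7 and Irf8 were above it in every array. Ccr7 differed by -0.86 in the IL-15-/- mouse of replicate 2 and by -1.30 and -1.29 in the IL-15+/+ mice, and Irf8 by 1.62 in that IL-15-/- mouse and by 1.07 and 0.42 in the IL-15+/+ mice. For Xcr1 the differences were -0.75 in the IL-15-/- mouse and -1.19 and -2.04 in the IL-15+/+ mice, and for Clec9a -0.55 in the IL-15-/- mouse and -0.80 and -2.67 in the IL-15+/+ mice. Without the IL-15+/+ mouse of replicate 2 as well, the same 4 genes were called, among 3203 of the 21789 probe sets. That setting was chosen after seeing the data and leaves 2 mice. Clec9a was then -0.68 and Xcr1 -0.97, with none of the 4 arrays above the olfactory receptor level for either gene, and these values are given as differences in signal near background. In the turned mouse the 4 signs were opposite, at 0.35 for Ccr7, 0.44 for Xcr1, 0.41 for Clec9a and -1.52 for Irf8.

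The other 6 genes did not pass between the populations in the 3 mice. Siglech differed by -0.87 (SE 0.28, adjusted p = 0.0765), Cd209a by -0.58 (SE 0.28, adjusted p = 0.226) and Irf4 by 0.54 (SE 0.18, adjusted p = 0.0877). Fscn1 was at -0.25, Batf3 at 0.10 and Zbtb46 at -0.03. Beside these differences the 13 macrophage genes averaged 9.49 to 10.05 and the 11 neutrophil genes 7.86 to 8.12 in the CD16/32HI arrays of the 3 mice, against 7.98 to 8.18 and 10.04 to 10.55 in their CD16/32LO arrays. The 11 T cell genes averaged 5.43 to 5.94 in these CD16/32HI arrays and 5.96 to 7.05 in these CD16/32LO arrays. The part of these cells in the differences was not tested.

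**Figure D3:**
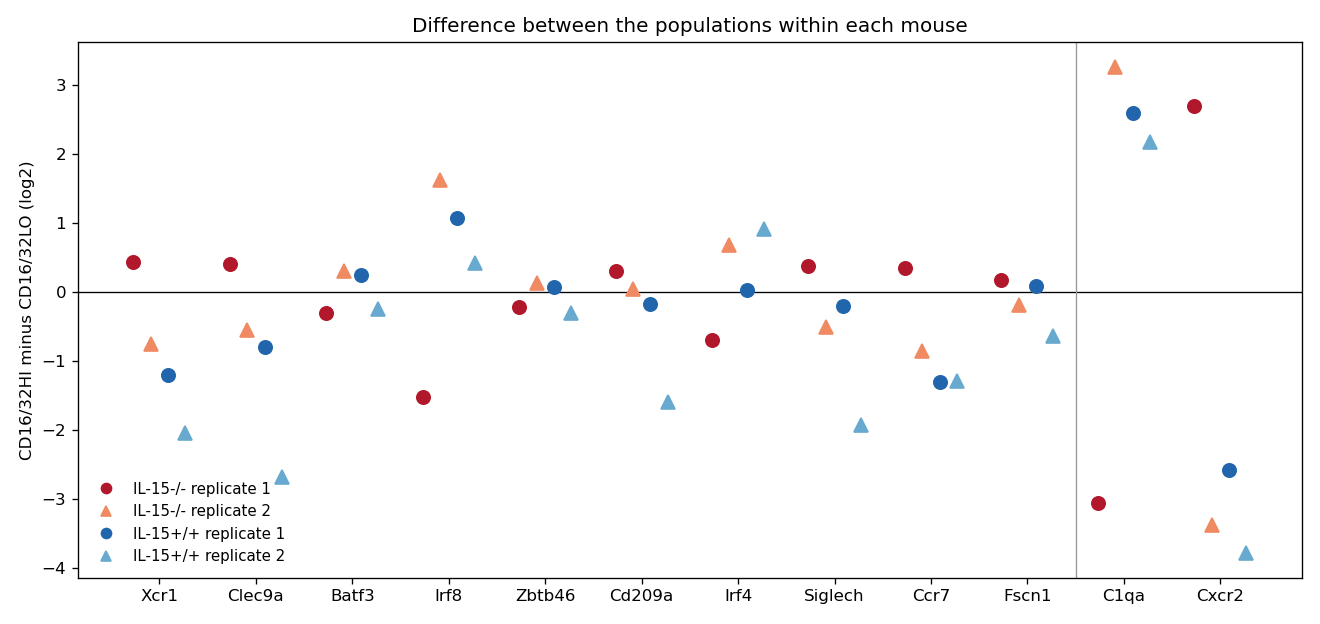
Difference between the array labelled CD16/32HI and the array labelled CD16/32LO of the same mouse (log2, vertical axis) for the 10 genes and, right of the line, for C1qa and Cxcr2, with 1 symbol for each of the 4 mice. In the IL-15-/- mouse of replicate 1 (dark red circles) C1qa is at -3.05 and Cxcr2 at 2.69, against 2.17 to 3.26 and -3.78 to -2.57 in the other mice, and Irf8, Ccr7, Xcr1 and Clec9a lie on the opposite side of 0 from the others.

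The wider lists of subset genes hold 65 genes, 60 of them measured. With all 4 mice 0 of the 60 passed between the populations, and the counts that follow are for the 3 mice, where 14.3% of all probe sets passed. Among the 14 cDC1 genes 3 rose and 7 fell in CD16/32HI cells of the 3 mice. Irf8, Cadm1, an adhesion molecule of cDC1 (1.18), and Tlr3, the receptor for double-stranded RNA (1.004), rose. Xcr1, Clec9a, the integrin Itgae (-1.22), Gcsam (-1.32), Wdfy4, which cDC1 need for cross-presentation (-0.81), and the factors Id2 (-1.12) and Nfil3 (-1.02) fell. The list thus held genes that passed in both directions, and its median was -0.72 where that of all probe sets was 0.03. Of the 10 cDC2 genes, the lectins Mgl2 (2.86) and Clec10a (1.71) and the factor Klf4 (0.94) rose and Cd7 (-1.04) fell. All 3 that rose are also transcribed by tissue macrophages. The 13 measured pDC genes gave 2 that rose, Pld4 (2.05) and the pDC factor Tcf4 (0.69), and 2 that fell, Klra17 (-3.30) and Ccr9 (-0.97). In the migratory list 2 of 16 rose, Ccl17 (2.17), a ligand of CCR4, and Socs2 (0.998), and 4 fell, namely Ccr7, Cd274 (-1.36), which encodes PD-L1, Mreg (-1.08) and Samsn1 (-1.86). Of the 7 genes shared by dendritic cells Ciita, the master regulator of MHC class II, rose (1.32) and Itgax (-0.62) and Cd24a (-0.66) fell.

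Between the genotypes 0 of the 60 genes passed in either population. In CD16/32LO cells the median log2 change was -0.31 for the cDC1 list, -0.39 for the pDC list, -0.10 for the shared list, 0.02 for the migratory list and 0.16 for the cDC2 list, beside 0.13 over all probe sets. The largest changes there were Klra17 (-2.20, SE 1.18) and Dntt (-1.18, SE 0.48) of the pDC list, Itgae (-1.37, SE 0.62) and Xcr1 of the cDC1 list, Flt3 (-1.36, SE 0.49) and Dpp4 (-0.66) of the shared list, Cd209a and Clec12a (-0.93, SE 0.58) of the cDC2 list, and Tnfrsf9 (0.98, SE 0.54) and Socs2 (0.96, SE 0.47) of the migratory list. In CD16/32HI cells the medians were 0.26 for the migratory list, 0.16 for the pDC list, 0.13 for the cDC1 list, 0.05 for the shared list and -0.44 for the cDC2 list, beside 0.09 over all probe sets. The leading changes were Ccl17 (-1.95, SE 0.98) and Cd274 (1.18, SE 0.42) of the migratory list, Pld4 (-1.35) and Klra17 (1.005) of the pDC list, Mgl2 (-1.325, SE 1.19) and Clec10a (-1.14, SE 0.80) of the cDC2 list, Itgax (0.97, SE 0.265) and Dpp4 (-0.75) of the shared list, and Gcsam (0.72) and Nfil3 (0.71) of the cDC1 list. Each of these has an adjusted p above 0.85 from limma. They include the arrays of the turned mouse. In its CD16/32HI array Pld4 (6.14), Mgl2 (6.19) and Dpp4 (6.01) were low, but the other IL-15-/- array was above both IL-15+/+ arrays (9.37, 9.81 and 8.26). Klra17 (7.96) and Nfil3 (11.16) were high in it, but below both IL-15+/+ arrays in the other (3.95 and 9.63). In CD16/32HI cells both IL-15-/- arrays were above both IL-15+/+ arrays for Cd274, Itgax and Gcsam, and below them for Ccl17. Without the turned mouse the cDC2 median in CD16/32HI cells was 0.04, where the median of all probe sets was 0.12.

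CD16/32LO IL-15+/+ replicate 2 held the highest of the 8 values in 4 of the 10 genes (Xcr1, Clec9a, Cd209a and Siglech) and in 17 of the 60 list genes, 28.3% of them, where the same is true of 3.23% of all probe sets. This array was singled out after its values were seen. It exceeded every other array by 1 or more in 9 of the 60 genes, against 0.142% of all probe sets (31 of 21789), and none of the other 7 arrays did so for any gene of the 5 lists. The 9 are Flt3, Xcr1, Clec9a, Itgae, Gcsam, Ifi205, Cd209a, Cd7 and Clec12a. Itgae, which encodes CD103, a marker of tissue cDC1, was at 8.76 there and at 5.70 to 7.18 elsewhere, and Gcsam was at 7.62 there and at 4.93 to 6.22 elsewhere. Ifi205 was at 8.46, Cd7 at 7.44 and Clec12a, a lectin of myeloid and dendritic cells, at 8.90, against at most 7.03, 6.20 and 7.55 elsewhere. By list, the array was highest in 6 of 14 cDC1 genes, 3 of 10 cDC2 genes, 5 of 13 pDC genes, 2 of 7 shared genes and 1 of 16 migratory genes. Its own median over all probe sets, 5.65, was the second lowest of the 8, and with each array centred on its median it was highest in 26 of the 60 genes and 11.1% of all probe sets.

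Other transcripts stood out in that array too. Of the 31 probe sets that led by 1 or more, the first was Ngp, a granule protein of immature neutrophils (10.97, against 8.70 or less), and Camp, another such gene, was at 7.13 (6.02 or less). Chil3, a secreted protein of monocytes and immature neutrophils, was at 10.26, against 8.63 or less. The neutrophil list had a mean of 10.45 there, above 10.04 in the other CD16/32LO IL-15+/+ array and below 10.55 in CD16/32LO IL-15-/- replicate 2. Of its 11 genes 1, Mmp8, was highest there, at 8.87. The lymphoid lists had means of 6.84 (T cell), 6.28 (NK cell) and 6.01 (B cell), below those of CD16/32LO IL-15+/+ replicate 1 (7.05, 6.59 and 7.03). Single lymphoid genes were highest there all the same, 4 of 11 NK cell, 3 of 11 T cell and 1 of 9 B cell genes. The part of immature myeloid cells in the values of Xcr1, Clec9a, Cd209a and Siglech was not tested.

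**Figure D4:**
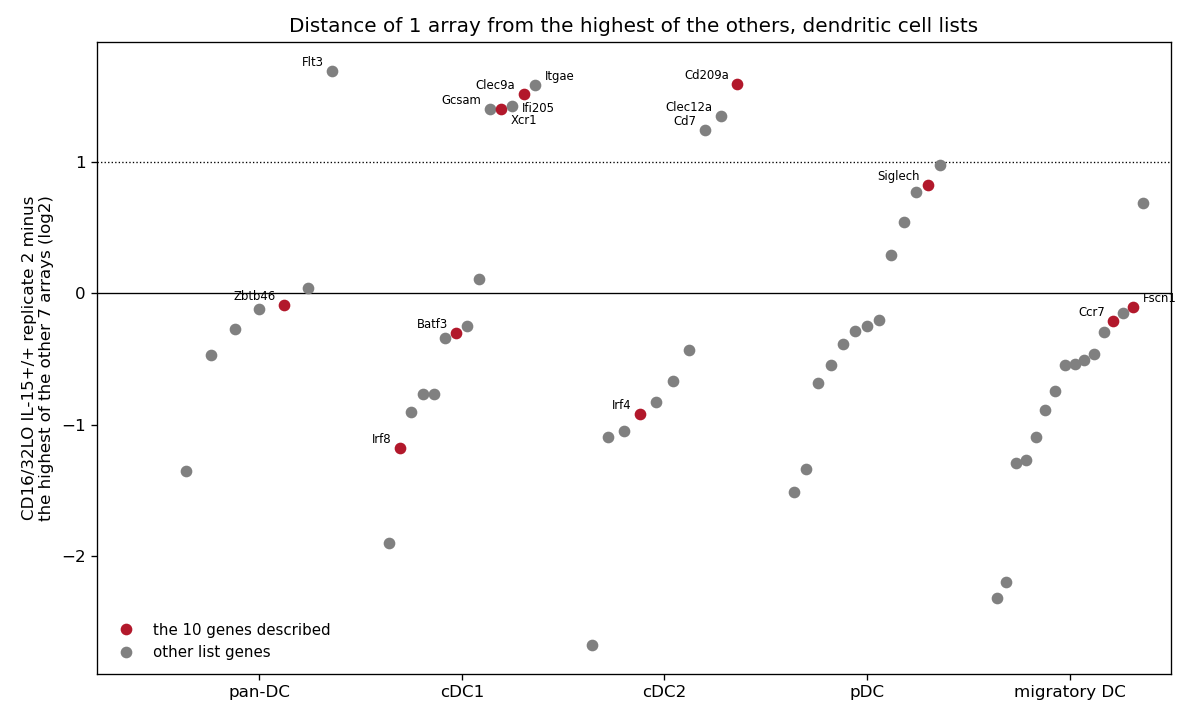
Value of CD16/32LO IL-15+/+ replicate 2 minus the highest of the other 7 arrays (log2, vertical axis) for the measured genes of the 5 dendritic cell lists (horizontal axis), with the 10 genes described in red and the other list genes in grey. Points above 0 are highest in that array, and 9 genes of the shared, cDC1 and cDC2 lists lie above the dotted line at 1, while Ccr7 and Fscn1 lie below 0.

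The ligands and growth factors of these cells were read beside the receptors. Xcl1, the ligand of XCR1 made by NK cells and CD8 T cells, was at 5.89 and 5.73 in CD16/32HI IL-15-/- arrays, against 6.53 and 6.82 in CD16/32HI IL-15+/+ arrays, and at 5.89 and 5.99 in CD16/32LO IL-15-/- arrays, against 8.39 and 8.79 in CD16/32LO IL-15+/+ arrays. Its change in CD16/32LO cells was -2.65 (SE 0.24, adjusted p = 0.00923 from limma), 1 of the 8 calls in that comparison. Leaving out any single CD16/32LO array ended the call (adjusted p = 0.0601 to 0.165) and so did a block for the scaling sets (adjusted p = 0.488), with changes of -2.85 to -2.45 throughout. The change in CD16/32HI cells was -0.86 (SE 0.24, adjusted p = 0.854). Ligand and receptor were thus both at their highest in CD16/32LO IL-15+/+ arrays, but Xcl1 was high in both of them and Xcr1 mainly in replicate 2. Flt3l, the growth factor of the dendritic cell lineage, ranged from 5.84 to 6.65, with changes of 0.35 in CD16/32HI and -0.42 in CD16/32LO cells (SE 0.25 each), and Ccl19, a ligand of CCR7, ranged from 5.61 to 6.70. The largest changes in CD16/32HI cells were those of Ccl3 (2.90, SE 0.75) and Ccl4 (1.29, SE 0.40), chemokines for monocytes and dendritic cell precursors, at an adjusted p of 0.854 from limma. Ccl3 was at 11.62 in the turned mouse and at 9.49 in the other IL-15-/- array, against 8.23 and 7.08 in IL-15+/+ arrays. Neither gene overlapped between the genotypes there. Cxcl16 had the second largest change in CD16/32LO cells (1.04, SE 0.95). It rested on the turned mouse, at 10.26, with the other IL-15-/- array at 8.24, against 8.21 and 8.22 in IL-15+/+ arrays.

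Of 18 measured partner factors, which bind with IRF8, IRF4 and BATF3 or set the balance of the subsets, 0 passed between the genotypes. The largest changes were Ikzf3 (-1.70, SE 0.50) and Zeb2 (1.22, SE 0.73) in CD16/32LO cells and Notch2 (1.13, SE 0.37) and Cebpa (-0.94, SE 0.64) in CD16/32HI cells. Those of Zeb2 and Cebpa rested on the turned mouse. Zeb2 was at 9.96 there and at 7.76 in the other IL-15-/- array, against 7.66 and 7.60 in IL-15+/+ arrays. Cebpa was at 6.87 there and at 8.81 in the other, against 8.62 and 8.94. For Ikzf3 and Notch2 the genotypes did not overlap. Between the populations 0 of the 18 passed with all 4 mice. In the 3 mice, where 14.3% of all probe sets passed, 3 of the 18 rose in CD16/32HI cells, Zeb2 (1.86), Cebpa (1.67) and Tcf4, and 5 fell, Ikzf3 (-1.79), Ikzf1, Notch2 (-1.13), Id2 and Batf (-0.61). Spi1, which encodes PU.1, lay between 8.65 and 9.60 in all 8 arrays.

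The genes most like each member over the 8 arrays, by Pearson correlation, were mostly not dendritic cell genes. Xcr1 was nearest to Chil3 (r = 0.98), Ngp (0.97) and Zfp874b (0.97), Clec9a to Arsb, Gcsam (0.98) and Adam23 (0.97), and Cd209a to Stk39 (0.98), Klre1 and Gm10684 (0.96). Siglech was nearest to Fcnb, Hemk1 and Dntt (all 0.96). Of the factors, Irf8 was nearest to Rps12, Rpl23a and Dock4 (all 0.99), Irf4 to B3glct, Lpgat1 (both 0.97) and Chd4, and Batf3 to Rps15, Bysl and Gstp1 (all 0.97). Ccr7 was nearest to Smpdl3a, Ppp4c and Ago2 (0.97 to 0.98), Fscn1 to Micos10 (0.99), Tnfrsf1a (0.98) and Ccdc3 (0.95), and Zbtb46 to Fzd1 (0.96), Gap43 (0.94) and Nek2 (0.93). With 8 arrays and 21789 probe sets, values of this size say only which profiles were closest.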

How the data were processed

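RNA of sorted tail tumor cells from 4 mice was hybridised to 8 arrays (Affymetrix mouse whole-transcript Gene ST). The authors deposited log2 values per probe set, which per the labels came from RMA in Affymetrix Expression Console, whose version is not given in the sources used here. Genes were named from the GEO platform annotation. Of 35557 probe sets, 21789 had 1 gene symbol and were tested, and 1621 with several symbols were not. Within each population the genotypes were set against each other with limma 3.58.1 (R 4.3.3) on 4 group means that shared 1 spread, and populations, and the difference of the genotype changes, within mice (mouse as a block). Calls were made at a Benjamini-Hochberg adjusted p under 0.05. The tests were tried on simulated data first. Named were the 10 members, from each list called genes and the 2 largest changes per genotype contrast, the 3 most correlated genes per member, and fixed ligands. Where a gene had several probe sets, the one with the highest mean was used. Marker lists also covered macrophages, monocytes, neutrophils and T, NK and B cells. The members and lists were chosen with earlier results of these data known. Alternatives were scaling, probe sets tested, variance prior, blocks, mice or arrays left out, and the methods' one-way test.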

Additional observations from a re-analysis of the deposited data

Results flagged for a closer look

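In Clec9a and Siglech the IL-15-/- array of both replicates was above its IL-15+/+ counterpart in CD16/32HI cells and below it in CD16/32LO cells. For Clec9a the differences of IL-15-/- minus IL-15+/+ were 0.54 and 0.60 in CD16/32HI cells and -0.67 and -1.52 in CD16/32LO cells (replicates 1 and 2). For Siglech they were 0.23 and 0.46 in CD16/32HI cells and -0.35 and -0.96 in CD16/32LO cells. The difference between the populations was 1.66 for Clec9a (SE 0.74, adjusted p = 0.878 from limma within mice) and 1.004 for Siglech (SE 0.69, adjusted p = 0.878), so neither passed. The replicate 2 values include CD16/32LO IL-15+/+ replicate 2, and the replicate 1 values include the mouse whose populations were turned round. In CD16/32HI cells Clec9a was under the olfactory receptor level in every array, and Siglech in every array but IL-15-/- replicate 1. Their CD16/32HI differences are thus between signals near background.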

How the results depend on the processing

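The count of the 10 genes called between IL-15-/- and IL-15+/+ tumors stayed at 0 in both populations under every alternative with a p threshold. These were scaling, probe sets tested, variance prior, scaling sets as a block, each array left out, and the methods' one-way test. The paper filtered that test for changes over 3-fold and states no p threshold, so an unadjusted one was added here. With both, the test called 0 of the 10 genes, and 10 probe sets in CD16/32HI and 17 in CD16/32LO cells. After Benjamini-Hochberg it called 0 probe sets. The 3-fold filter alone passed 76 probe sets in CD16/32HI cells, with 0 of the 10 genes. In CD16/32LO cells it passed 80, with 1 of the 10 genes, Cd209a (-1.60). Over all probe sets limma called 5 in CD16/32HI and 8 in CD16/32LO cells, with 0 and 2 under the block for scaling sets and 9 and 26 without the IL-15-/- mouse of replicate 1. With a replicate block limma called 3 probe sets in CD16/32HI and 6 in CD16/32LO cells and 0 of the 10 genes. Same-numbered arrays of the genotypes deviated together with r = 0.06 in CD16/32HI and 0.13 in CD16/32LO cells, and share an age and, in replicate 1, a scaling set. Between the populations the count of the 10 genes ran from 0 to 4 over the mice left out. It was 4 without the IL-15-/- mouse of replicate 1, where 14.3% of all probe sets were called. For the difference of the genotype changes, calls arose only without the IL-15-/- mouse of replicate 2, among the 10 genes and all probe sets alike. The IL-15-/- side then rests on the turned mouse alone, so no count is given. The list genes highest in CD16/32LO IL-15+/+ replicate 2 numbered 26 with arrays centred on their medians and 22 with quantile normalization, beside 17. The share of all probe sets highest there rose too, to 11.1% with centring and 9.98% with quantile normalization, beside 3.23%. Both settings were chosen after seeing the data.

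Changes near 0 turned their sign. Centring moved the median change of all probe sets to -0.039 in CD16/32HI and 0.012 in CD16/32LO cells, beside 0.09 and 0.13 as deposited. With single arrays left out limma called 2 to 4 probe sets in CD16/32HI and 3 to 11 in CD16/32LO cells. In CD16/32HI cells Zbtb46 was -0.085 and Batf3 -0.069 after centring, and Zbtb46 was -0.071, Batf3 -0.13 and Fscn1 -0.0020 after quantile normalization. With the block for scaling sets Batf3 was -0.15, Cd209a 0.31, Fscn1 -0.093 and Flt3 0.019. In CD16/32LO cells Batf3 was -0.058 after centring, -0.0499 after quantile normalization and -0.15 with that block, and Irf4 was -0.068 with it. With arrays or mice left out, the IL-15-/- over IL-15+/+ changes ran in CD16/32HI cells over Zbtb46 -0.12 to 0.22, Xcr1 -0.0403 to 0.51, Batf3 -0.25 to 0.37, Irf8 -1.57 to 0.84, Irf4 -0.89 to 0.23, Siglech -0.0881 to 0.78, Fscn1 -0.0487 to 0.42, Flt3 -0.34 to 0.10, and in CD16/32LO cells over Zbtb46 -0.16 to 0.11, Batf3 -0.0053 to 0.13, Irf8 -0.0754 to 0.73, Irf4 -0.0714 to 0.37, Ccr7 -0.65 to 0.0953, Fscn1 -0.49 to 0.33. The CD16/32HI over CD16/32LO differences ran over Zbtb46 -0.15 to 0.098, Batf3 -0.10 to 0.28, Irf8 -0.0115 to 1.34, Cd209a -0.58 to 0.0549, Fscn1 -0.25 to 0.0216. Xcr1, Clec9a and Zbtb46 had means under 5.60, the olfactory receptor level, and 3 members were left out where only brighter probe sets were tested.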
